A study of Mus musculus with 8 samples.

Results

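Wnt ligands, their receptors and the secreted proteins that modulate them form the outermost layer of Wnt signaling. The 45 genes described here are those of 43629 in the count table whose symbols begin with Wnt, Fzd, Sfrp or Rspo and a digit, plus Lrp5, Lrp6, Porcn, Wls, Ror1, Ror2 and Ryk. Of them 44 are protein-coding (19 Wnt ligands, 10 Frizzled receptors, 5 other receptors, 4 R-spondins, 4 Sfrp genes and 2 genes of Wnt release) and none is a pseudogene. The remaining member, Rspo4os, is an antisense RNA named for Rspo4 that matches by symbol alone. Polyadenylated RNA was sequenced from 4 tumor and 4 small intestine libraries of untreated APC mutant mice of C57B6/129 strain, so the comparison is between tissues of mutant animals and includes no wild-type tissue. The Apc allele, the age of the mice, the place of the tumors and small intestine samples along the gut, and whether each library is a separate animal are not stated in the sources used here. The p-values therefore reflect the spread among these 8 libraries, which may be technical.

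As background, Wnt proteins are lipid-modified by the acyltransferase Porcn and carried to the cell surface by Wls. They bind Frizzled receptors together with the co-receptors Lrp5 and Lrp6, which stabilizes beta-catenin, or together with Ror1, Ror2 and Ryk, which act mainly without beta-catenin. R-spondins prolong the time that Frizzled receptors stay on the cell surface, and Sfrp proteins bind Wnt proteins outside the cell. In the mouse crypt, Paneth cells supply Wnt3, and cells of the underlying stroma supply Wnt2b, Wnt5a and R-spondins. Loss of Apc activates beta-catenin downstream of all these proteins.

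Gene-assigned counts ran from 53856561 to 67371180 per tumor library and from 62347648 to 84433335 per small intestine library. Levels are given as CPM, read counts relative to library size scaled by TMM (trimmed mean of M values, a correction for library composition), and, to compare genes with each other, as the authors' FPKM, which is scaled for gene length. Enterocyte markers (5 of 5 lower in tumor) summed to 65.0 to 149 CPM in tumor libraries and 13600 to 19800 CPM in small intestine libraries, and 6 general epithelial markers (5 lower, 1 higher) to 5860 to 8080 CPM and 13600 to 18200 CPM. In bulk tissue, fewer cells of a type and less RNA per cell cannot be told apart.

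Of the 45 genes, 36 passed the low-count filter. In tumor 26 of these rose and 3 fell (edgeR quasi-likelihood test, Benjamini-Hochberg adjusted p under 0.05 over all genes), and 7 did not pass the test. Among all 17029 genes tested, 38.9% were called higher and 35.4% lower, 74.3% in all. The median log2 fold change was 2.58 over the 36 genes, also with Wnt7a and Wnt7b set at their lower bounds described with these genes, and 0.07 over all genes tested. CPM values of tumor libraries lay above all small intestine values for 24 genes and below for 3, against 37.5% and 33.0% of all genes tested (70.5% in either direction). These counts describe the genes that passed the filter: 14 of the 36 exceeded the filter's level of 0.152 unscaled CPM in each tumor library but not in each small intestine library, so they passed through tumor, and none passed through small intestine. A scaling that uses library totals without composition correction moved the median of all genes up by 0.86 on the log2 scale. With it 30 of the 36 genes rose and 1, Fzd5, fell, while of all 17029 genes tested 10564 were called higher and 2996 lower. Across 18 alternative settings, 23 of the 26 genes that rose were called higher wherever they were tested, the exceptions being Rspo3, Wnt2 and Wnt2b, and of the 3 that fell only Fzd5 was called lower throughout.

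**Figure D1:**
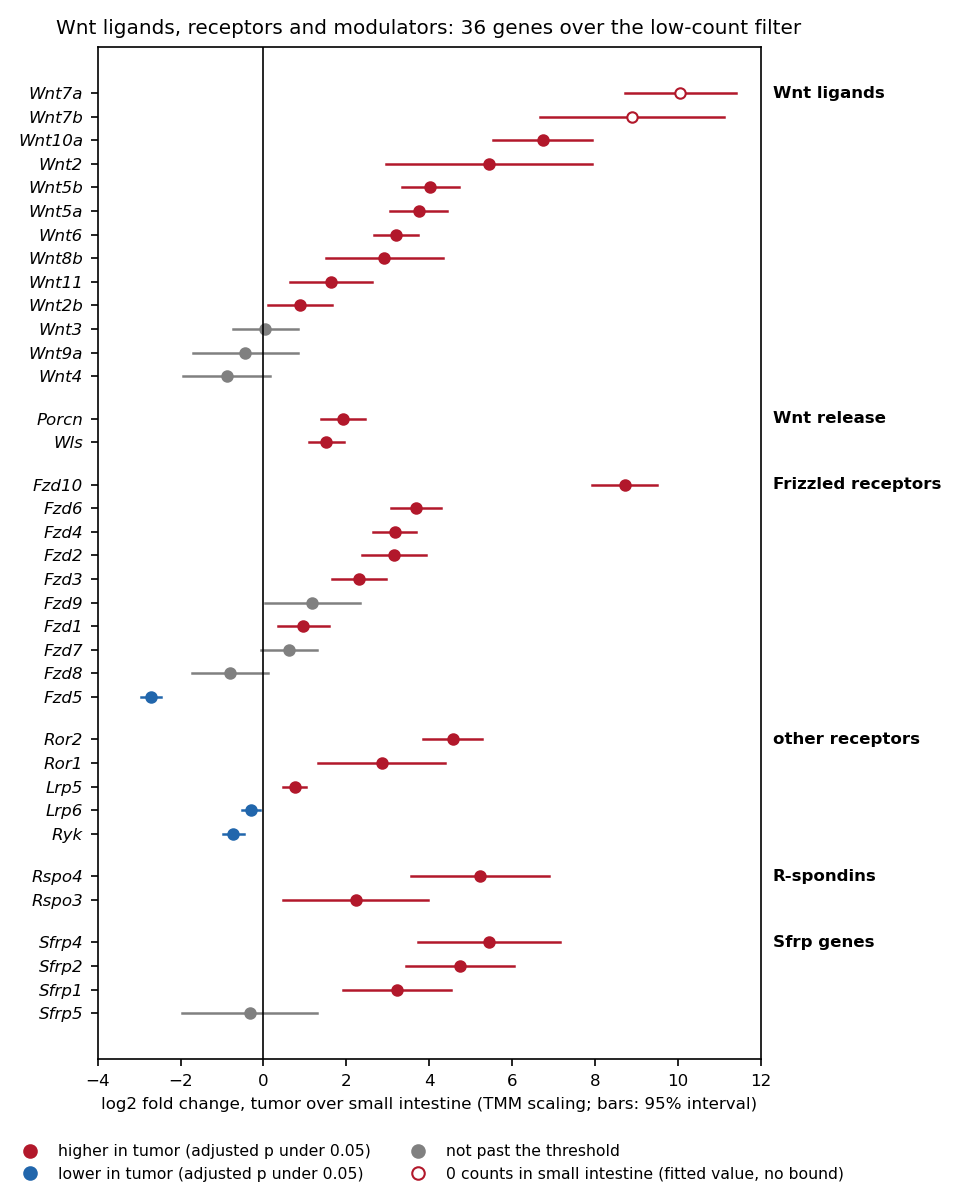
Log2 fold change of tumor over small intestine for the 36 genes over the low-count filter, by role, with 95% intervals from the edgeR fit; colors give the call. Most points lie right of 0, with Wnt7a, Wnt7b (0 counts in small intestine, open points) and Fzd10 farthest out, where the fitted values of Wnt7a and Wnt7b depend on the prior count, and Fzd5 at -2.72 is the only gene beyond -1.

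Among the 19 Wnt ligands 10 rose, none fell, 3 did not pass the test and 6 were under the filter. These counts and those of the other roles stand against 38.9% called higher and 35.4% lower among all genes tested. Of the ligands that rose, Wnt10a, Wnt2, Wnt5b, Wnt7a, Wnt7b and Wnt8b passed the filter through tumor. Wnt5a, a ligand that signals mostly without beta-catenin, was at 61.8, 49.8, 48.1 and 47.2 CPM in tumor replicates 1 to 4 and at 4.57, 3.06, 1.97 and 5.71 CPM in small intestine replicates 1 to 4. The antisense gene Gm2670, which shares 4.58% of the Wnt5a exon bases, had 141 counts in tumor and 3 in small intestine. No small intestine library came near the lowest tumor library, and the log2 fold change was 3.75 ± 0.31 (SE; edgeR adjusted p = 4.0e-06). Its close relative Wnt5b was at 4.2, 4.07, 4.61 and 4.85 CPM in tumor, against 0.382, 0.318, 0.168 and 0.207 CPM in small intestine. The tumor values of Wnt5b lay within a narrow band, and its log2 fold change was 4.03 ± 0.30 (adjusted p = 2.48e-06). Wnt6, a ligand of embryonic and skin epithelia, was at 23.9, 26.2, 22.9 and 34.5 CPM in tumor and at 2.73, 2.07, 2.81 and 4.07 CPM in small intestine, with a log2 fold change of 3.20 ± 0.23 (adjusted p = 2.03e-06). Replicate 4 was the highest library in each tissue.

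Wnt10a, which activates beta-catenin signaling in skin and teeth, was at 5.01, 5.07, 4.75 and 9.75 CPM in tumor, against 0.0347, 0.0530, 0.126 and 0.0172 CPM in small intestine. Tumor replicate 4 and small intestine replicate 3 were the highest libraries of their groups, and the groups were far apart. The log2 fold change was 6.74 ± 0.53 (adjusted p = 3.26e-06), and 7.39 without small intestine replicate 3. Wnt10a and Wnt6 are neighbors in GRCm38, on chromosome 1 from 74791516 to 74804179 and from 74771892 to 74785322, on the same strand, 6193 bases apart and with no protein-coding gene between them. Per length Wnt6 was the higher of the pair, at 15.8 ± 3.32 against 2.89 ± 1.16 FPKM in tumor and 0.988 ± 0.239 against 0.0410 ± 0.0468 FPKM in small intestine (SD, n = 4 each).

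The members include 3 more neighboring pairs with no protein-coding gene between them, each on opposite strands. Each pair holds a gene under the filter, so the main fit did not test whether both genes of a pair rose. A fit with no low-count filter tested 44 members and called 29 higher and 2 lower, against 7461 and 6174 of 27282 genes. Its values for the genes under the filter are not given here. Wnt9b and Wnt3 lie 24328 bases apart on chromosome 11, Wnt3a and Wnt9a 16175 bases apart on the same chromosome, and Wnt10b and Wnt1 11706 bases apart on chromosome 15. Wnt3 and Wnt9a did not pass the test, and Wnt9b, Wnt3a, Wnt10b and Wnt1 were under the filter. On few counts, tumor libraries lay above all small intestine libraries for both Wnt10b and Wnt1.

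Wnt7a and Wnt7b, related ligands of epithelial and vascular development, had no count in any small intestine library. Wnt7a had 161, 187, 136 and 159 counts in tumor replicates 1 to 4, or 1.95 ± 0.252 CPM (SD, n = 4), and was at least 35.4-fold higher in tumor. Wnt7b had 84, 86, 26 and 96 counts in tumor, or 0.859 ± 0.338 CPM, and was at least 15.6-fold higher. These bounds set small intestine at 3 counts per library, which corresponds to 0.0517 to 0.0630 CPM over the 4 small intestine libraries, and cover counting error only. The edgeR adjusted p was 7.94e-06 for Wnt7a and 0.000159 for Wnt7b.

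Wnt11, which guides cell movements in the embryo, was at 2.60, 4.25, 3.16 and 3.07 CPM in tumor, against 0.590, 2.10, 0.945 and 0.552 CPM in small intestine. Replicate 2 was the highest library in each tissue, and its small intestine value lay just under the lowest tumor value. The log2 fold change was 1.64 ± 0.44 (edgeR adjusted p = 0.00727), and 2.23 without small intestine replicate 2. Wnt2b, a stromal ligand, was at 1.46, 1.18, 1.56 and 0.992 CPM in tumor and at 1.2, 0.566, 0.525 and 0.535 CPM in small intestine. Small intestine replicate 1 overlapped the tumor values. The log2 fold change of 0.87 ± 0.34 (adjusted p = 0.0422) was no longer called when any library other than tumor replicate 4 or small intestine replicate 1 was left out (adjusted p of 0.0636 to 0.0977), and over all alternatives the adjusted p was 0.00124 to 0.0977.

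Wnt2, a stromal ligand of the beta-catenin branch, was at 0.232, 0.334, 0.405 and 2.50 CPM in tumor, and at 0.0347, 0, 0.0210 and 0.0172 CPM in small intestine. Most of its tumor counts came from replicate 4, with 222 of 299. Its log2 fold change of 5.45 ± 1.11 (edgeR adjusted p = 0.00151) was 4.05 without that library. In the authors' FPKM values with no filter on low values it was not called (limma adjusted p = 0.102, the highest of 2.01e-06 to 0.102 over the alternatives). Wnt8b, a ligand of the developing brain, averaged 0.719 ± 0.245 CPM in tumor libraries, against 0.0914 ± 0.0653 CPM in small intestine libraries (SD, n = 4 each), with groups that did not overlap and a log2 fold change of 2.92 ± 0.62 (edgeR adjusted p = 0.00208).

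The ligands that did not pass the test were Wnt3, Wnt4 and Wnt9a. Wnt3, the Paneth cell ligand, was at 3.82, 4.16, 6.13 and 2.81 CPM in tumor and at 6.56, 2.35, 3.46 and 3.98 CPM in small intestine. The groups overlapped throughout, and the 95% interval of the log2 fold change ran from -0.74 to 0.83 (estimate 0.05; edgeR adjusted p = 0.907). With library totals alone the estimate was 0.89 and called (edgeR adjusted p = 0.0482; 0.0274 to 0.952 over all alternatives). Paneth cell markers (4 of 6 lower, 1 higher) summed to 945 to 2490 CPM in tumor and 4420 to 14000 CPM in small intestine. In tumor the libraries stood in the same order for Wnt3 and for that sum. In small intestine the order differed for replicates 3 and 4, at 3.46 and 3.98 CPM for Wnt3 and 5110 and 4790 CPM for the sum. Between tissues the groups overlapped for Wnt3 and were separate for the sum. The part of Paneth cells in the Wnt3 values was not tested. Wnt4, a ligand of kidney and reproductive tract development, averaged 0.730 ± 0.429 CPM in tumor libraries, against 1.35 ± 0.545 CPM in small intestine libraries, with an interval from -1.93 to 0.16 (adjusted p = 0.11). Without tumor replicate 4 it was called lower, at -1.28 (edgeR adjusted p = 0.0319), and over all alternatives the adjusted p was 0.0319 to 0.997. For Wnt9a the levels were 0.547 ± 0.153 and 0.737 ± 0.593 CPM in the same order, and the interval was -1.70 to 0.83.

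Members under the filter held few counts. Wnt10b, a relative of Wnt10a, had 25, 30, 4 and 43 counts in tumor replicates 1 to 4 and 2, 1, 2 and 1 in small intestine replicates 1 to 4. Wnt9b had 17, 12, 4 and 6 counts in tumor and 4, 0, 0 and 1 in small intestine, and Wnt16 had 19, 9, 25 and 3 against 5, 2, 4 and 10. Every tumor library was above every small intestine library for Wnt10b, and the groups overlapped for Wnt9b and Wnt16. Wnt1, the founding member of the family, had 2, 2, 1 and 1 counts in tumor and none in small intestine, Wnt8a had 1 count in 1 tumor library, and Wnt3a, a strong activator of beta-catenin, had none in any library. At this depth these last 3 were not detectable above 3 counts per library.

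Promoter sequences, from RefSeq on GRCm38.p6, were at hand for 29 of the 45 genes. The 250 bases before each gene's start were searched on both strands for CTTTGAT and CTTTGAA, which are core sites of the TCF and LEF factors that act with beta-catenin. Starts are those of RefSeq and can lie inside a longer transcript of another annotation, as the Fzd10 start does in GENCODE. A site was present for 2 of these 29 genes (6.90%) and for 2333 of 27025 genes in the table (8.63%). The genes with a site were Wnt11 and Wnt5b, which are shown with the site in capitals because both rose in tumor. For Wnt5b it is the window of the most downstream of 3 starts, chr6:119449387-119449636 on the minus strand, and for Wnt11 the first of 2 starts, chr7:98834862-98835111 on the plus strand, where the site reads on the opposite strand.
Wnt11: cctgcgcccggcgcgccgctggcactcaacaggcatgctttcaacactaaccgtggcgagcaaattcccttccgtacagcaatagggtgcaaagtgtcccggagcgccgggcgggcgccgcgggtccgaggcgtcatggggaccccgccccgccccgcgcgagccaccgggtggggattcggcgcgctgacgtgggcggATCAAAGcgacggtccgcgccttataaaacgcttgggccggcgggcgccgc
Wnt5b: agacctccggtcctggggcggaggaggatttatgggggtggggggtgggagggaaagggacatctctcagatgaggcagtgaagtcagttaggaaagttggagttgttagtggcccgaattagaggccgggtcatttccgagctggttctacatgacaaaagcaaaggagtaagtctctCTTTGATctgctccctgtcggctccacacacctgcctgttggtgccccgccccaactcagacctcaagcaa

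**Figure D2:**
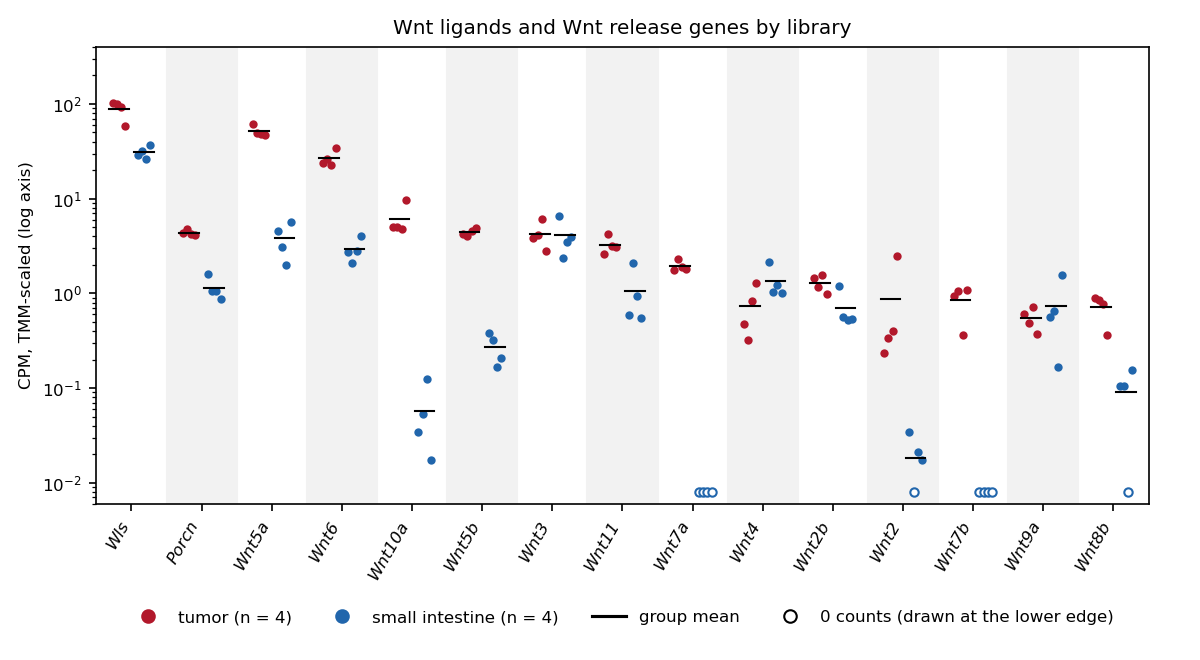
CPM in each library, on a log axis, of Wls, Porcn and the 13 Wnt ligands over the low-count filter; tumor libraries are left of small intestine libraries, lines are group means and open points are libraries with 0 counts. Groups are separate for most genes, they overlap for Wnt3, Wnt4, Wnt2b and Wnt9a, and tumor replicate 4 stands apart for Wnt2 at 2.50 CPM.

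Both genes of Wnt release rose. Wls, the Wnt carrier, was at 103, 99.1, 93.9 and 58.4 CPM in tumor and at 28.7, 31.5, 26.5 and 37.3 CPM in small intestine. Tumor replicate 4, the lowest of its group, was still above each small intestine library, and the log2 fold change was 1.52 ± 0.19 (edgeR adjusted p = 6.2e-05). Porcn, the acyltransferase, was at 4.30, 4.78, 4.26 and 4.13 CPM in tumor and at 1.60, 1.06, 1.05 and 0.879 CPM in small intestine. Its log2 fold change was 1.93 ± 0.24 (adjusted p = 6.07e-05). Per length Wls was above Porcn in each tissue, with 37.1 ± 8.12 and 2.79 ± 0.304 FPKM in tumor and 6.60 ± 0.883 and 0.433 ± 0.0909 FPKM in small intestine.

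The Frizzled receptors changed in their makeup. Of 10 measured genes 6 rose, Fzd5 fell and 3 did not pass the test, while 74.3% of all genes tested were called in either direction. Fzd10 was at 71.3, 71.3, 42.9 and 69.0 CPM in tumor and at 0.191, 0.0707, 0.0840 and 0.241 CPM in small intestine. Even its lowest tumor library, replicate 3, exceeded each small intestine library by far. Fzd10, a receptor expressed in the embryo and little in most adult tissues, had the largest log2 fold change among receptors, 8.72 ± 0.35 (edgeR adjusted p = 7.86e-08). Fzd5, an epithelial receptor needed in the mouse for Paneth cells to mature, was at 28.3, 34.5, 35.7 and 36.1 CPM in tumor, against 202, 217, 232 and 234 CPM in small intestine. The libraries lay close together in both tissues, and the log2 fold change was -2.72 ± 0.11 (adjusted p = 7.92e-08). Fzd5 also fell with library totals alone, at -1.85. A small gene on the opposite strand, Gm38058, shares 17.8% of the Fzd5 exon bases and had 14 counts in tumor and 20 in small intestine, few beside those of Fzd5.

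Fzd6, which orients hair follicles and can act without beta-catenin, was at 32.8, 35.4, 27 and 40.8 CPM in tumor and at 2.74, 1.41, 3.19 and 3.24 CPM in small intestine, with a log2 fold change of 3.68 ± 0.27 (edgeR adjusted p = 2.08e-06). Fzd4, known for its role in retinal vessels, was at 9.86, 11.0, 9.37 and 7.60 CPM in tumor, against 1.27, 1.18, 0.965 and 0.776 CPM in small intestine. Fzd2, a receptor for Wnt5a, was at 9.84, 9.48, 11.6 and 8.43 CPM in tumor and at 1.01, 0.902, 1.93 and 0.621 CPM in small intestine. These genes moved by a similar amount, with log2 fold changes of 3.17 ± 0.23 for Fzd4 and 3.15 ± 0.34 for Fzd2, and no groups overlapped. Fzd3, which guides axons, was at 2.80, 3.39, 2.71 and 3.88 CPM in tumor and at 0.764, 0.654, 0.777 and 0.379 CPM in small intestine. Fzd1 showed the smallest rise of the 6. It was at 20.7, 15.3, 13.7 and 12.9 CPM in tumor and at 8.45, 6.17, 5.31 and 12.2 CPM in small intestine, where replicate 4 came close to the lowest tumor library. The log2 fold changes were 2.31 ± 0.29 for Fzd3 and 0.96 ± 0.27 for Fzd1 (edgeR adjusted p = 6.88e-05 and 0.0096).

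Fzd7, the receptor on which mouse intestinal stem cells chiefly rely, did not pass the test. It was at 22.2, 22.3, 23.0 and 21.9 CPM in tumor and at 9.62, 24.9, 8.90 and 14.7 CPM in small intestine. Tumor libraries were nearly equal, while small intestine replicate 2 lay above all of them. The 95% interval of the log2 fold change ran from -0.05 to 1.29 (estimate 0.62; edgeR adjusted p = 0.0828). Without small intestine replicate 2 the estimate was 1.01 and called (edgeR adjusted p = 0.00114), and over all alternatives the adjusted p was 0.000365 to 0.199. Fzd9, with roles in bone and muscle, averaged 2.91 ± 1.18 CPM in tumor libraries, against 1.28 ± 0.875 CPM in small intestine libraries, with an interval from 0.03 to 2.33 before adjustment (adjusted p = 0.0593). It was called without small intestine replicate 1, at 1.75 (edgeR adjusted p = 0.00855), and without tumor replicate 4, at 1.47 (edgeR adjusted p = 0.0230). With library totals it was called at 2.01 (edgeR adjusted p = 0.0074), and over all alternatives the adjusted p was 0.00127 to 0.132. Fzd8 was at 3.12 ± 1.25 and 5.46 ± 2.38 CPM in the same order, with an interval from -1.73 to 0.12. It was called lower without small intestine replicate 3, at -1.06 (edgeR adjusted p = 0.022; 0.022 to 0.881 over all alternatives).

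Shares of the summed FPKM of a family do not depend on the scaling between tissues. Fzd5 made up 8.85, 10.9, 13.9 and 11.9% of the Frizzled sum in tumor replicates 1 to 4, against 77.3, 76.9, 84.4 and 78.1% in small intestine replicates 1 to 4. Fzd10 made up 36.8 ± 4.71% in tumor and 0.136 ± 0.05% in small intestine, and Fzd6 17.1 ± 1.99% and 1.49 ± 0.493% in the same order (SD, n = 4 each). Each of these differences had an exact 2-sided permutation p of 0.0286, the smallest that 4 against 4 libraries can give, and 0.0393 after Benjamini-Hochberg adjustment over the 22 shares tested in 4 families. Of the 22 shares, 16 reached that p. Shares of a family sum to 100% and are therefore not independent. Fzd7 made up 10.0 ± 1.38% in tumor and 7.39 ± 3.66% in small intestine (exact permutation p = 0.229, adjusted 0.239).

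The order of levels also differed. In tumor Fzd10 led with 23.8 ± 5.37 FPKM, before Fzd6 with 10.9 ± 2.09, Fzd5 with 7.18 ± 0.876 and Fzd7 with 6.34 ± 0.0448 FPKM. The mean of Fzd7 lay within the spread of Fzd5, and with CPM per kilobase of exon in GRCm38 in place of FPKM the pair stood at 4.87 ± 0.522 for Fzd5 and 4.93 ± 0.110 for Fzd7. In small intestine Fzd5 led with 22.7 ± 1.36 FPKM, and the next, Fzd7, was at 2.14 ± 1.13 FPKM. Among ligands Wnt5a and Wnt6 led in tumor with 16.3 ± 2.44 and 15.8 ± 3.32 FPKM, and which was higher changed between libraries. That near tie depended on the gene lengths, since per kilobase of exon Wnt6 was at 12.25 ± 2.40 CPM in tumor and Wnt5a at 6.61 ± 0.868, and Wnt6 was the higher in each tumor library. In small intestine Wnt6 was at 0.988 ± 0.239, Wnt3 at 0.802 ± 0.354 and Wnt5a at 0.659 ± 0.206 FPKM. The mean of Wnt3 lay within the spread of each of the others, and Wnt6 was above Wnt5a in each small intestine library. Per kilobase of exon Wnt3 was at 1.33 ± 0.580, Wnt6 at 1.33 ± 0.381 and Wnt5a at 0.489 ± 0.210 CPM in small intestine. There Wnt3 was above Wnt5a in each library, so their nearness in FPKM depended on the gene lengths. Wnt3 made up 3.60 ± 1.45% of the ligand sum in tumor and 22.5 ± 7.21% in small intestine, Wnt5a 37.4 ± 6.07% and 18.6 ± 3.65%, and Wnt10a 6.46 ± 1.81% and 1.31 ± 1.62%. These 3 shares had an exact permutation p of 0.0286 (adjusted 0.0393), and the difference for Wnt10a was 5.14 percentage points from FPKM and 8.28 from counts per exon length. The share of Wnt6, 35.9 ± 4.04% in tumor and 28.5 ± 6.27% in small intestine, did not pass (exact permutation p = 0.143, adjusted 0.165). From counts per exon length it was 44.5 ± 3.56% and 31.2 ± 6.63% and did pass (exact permutation p = 0.0286, adjusted 0.0370), with a difference of 13.3 percentage points in place of 7.37. The ligand sum itself was 43.8 ± 4.77 FPKM in tumor and 3.49 ± 0.511 FPKM in small intestine, and the Frizzled sum 63.9 ± 7.33 and 28.6 ± 1.2 FPKM, on a scale without composition correction.

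**Figure D3:**
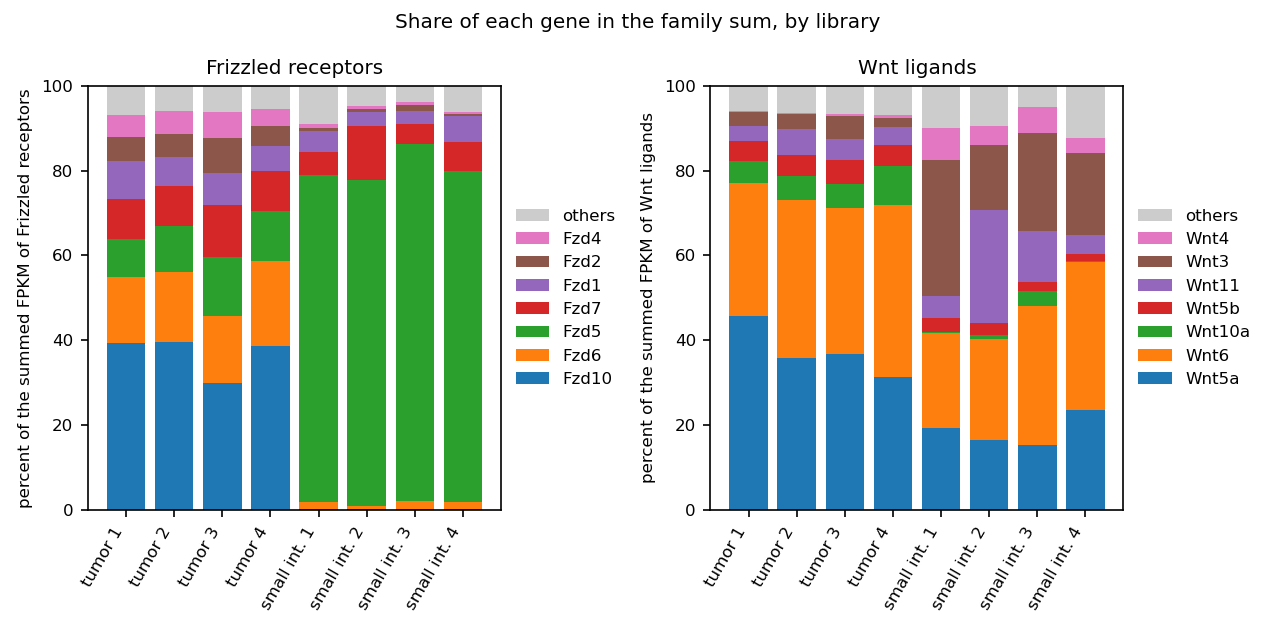
Percent of the summed FPKM of Frizzled receptors (left) and Wnt ligands (right) taken by each gene with a mean share of 5% or more in a tissue, 1 bar per library, tumor left of small intestine; gray is the rest. Fzd5 takes 8.85 to 13.9% of the Frizzled sum in tumor, where Fzd10 is the largest share, and 76.9 to 84.4% in small intestine, and Wnt3 takes 2.05 to 5.52% of the ligand sum in tumor and 15.3 to 32.2% in small intestine.

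Among the other receptors Ror2, Ror1 and Lrp5 rose, and Lrp6 and Ryk were called lower on the TMM scale. Ror2, a tyrosine kinase-like receptor for Wnt5a, was at 29.8, 26.7, 21.8 and 19.3 CPM in tumor and at 1.37, 0.495, 1.05 and 1.19 CPM in small intestine. Each tumor library was far above each small intestine library, with a log2 fold change of 4.57 ± 0.31 (edgeR adjusted p = 1.41e-06). Its relative Ror1 was at 1.71, 1.44, 1.38 and 2.91 CPM in tumor, against 0.608, 0.265, 0.105 and 0.0345 CPM in small intestine. The small intestine values of Ror1 were widely spread, and its log2 fold change of 2.86 ± 0.68 (adjusted p = 0.00384) was 3.76 without small intestine replicate 1. The co-receptor Lrp5 was at 258, 249, 216 and 187 CPM in tumor and at 126, 134, 127 and 151 CPM in small intestine, with a log2 fold change of 0.76 ± 0.12 (adjusted p = 0.000347).

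Lrp6, its partner, was at 85.9, 88.4, 89.0 and 78.1 CPM in tumor and at 110, 98.3, 94.5 and 117 CPM in small intestine, with a log2 fold change of -0.30 ± 0.09 (edgeR adjusted p = 0.0173). That direction depended on the scaling, since with library totals Lrp6 was called higher, at 0.57 (edgeR adjusted p = 0.000221), and in the FPKM table at 0.58 on the log2(FPKM + 1) scale (limma adjusted p = 7.67e-05). It was also not called without tumor replicate 1 (-0.28, edgeR adjusted p = 0.0513) or tumor replicate 4 (-0.22, edgeR adjusted p = 0.0704), and over all alternatives the adjusted p was 7.67e-05 to 0.136. Ryk, a receptor related to kinases, was at 74.9, 74.8, 71.6 and 75.0 CPM in tumor and at 119, 128, 99.8 and 142 CPM in small intestine, with a log2 fold change of -0.72 ± 0.11 (adjusted p = 0.000252), but it stood at 0.15 with library totals (edgeR adjusted p = 0.166; 5.2e-08 to 0.166 over all alternatives). Within the 5 other receptors, Lrp5 took 48.4 ± 3.03% of the summed FPKM in tumor and 35.2 ± 2.76% in small intestine, Ryk 33.3 ± 3.02% and 51.2 ± 2.94%, and Lrp6 11.4 ± 0.594% and 13.2 ± 0.819%. Their shares each differed with an exact permutation p of 0.0286 (adjusted 0.0393). The Lrp6 difference of -1.83 percentage points was -3.75 from counts per exon length (exact permutation p = 0.0286).

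**Figure D4:**
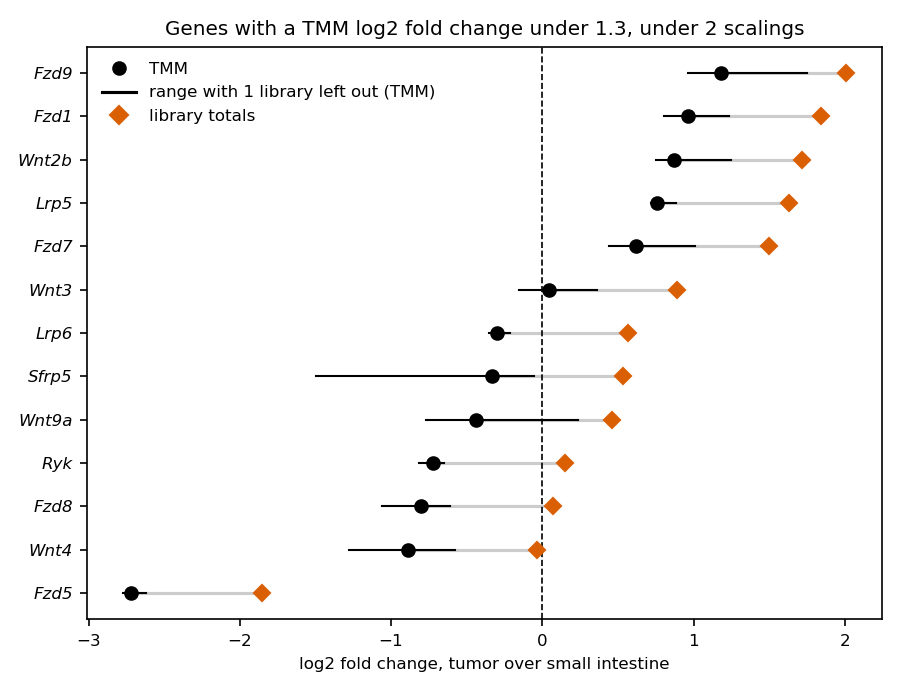
Log2 fold change of tumor over small intestine for the 13 genes under 1.3 on the TMM scale: black points are TMM values, black bars the range when each library is left out, and orange diamonds values from library totals. Fzd5 is below 0 under both scalings, and 5 genes (Lrp6, Sfrp5, Wnt9a, Ryk and Fzd8) change sign.

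**Figure D5:**
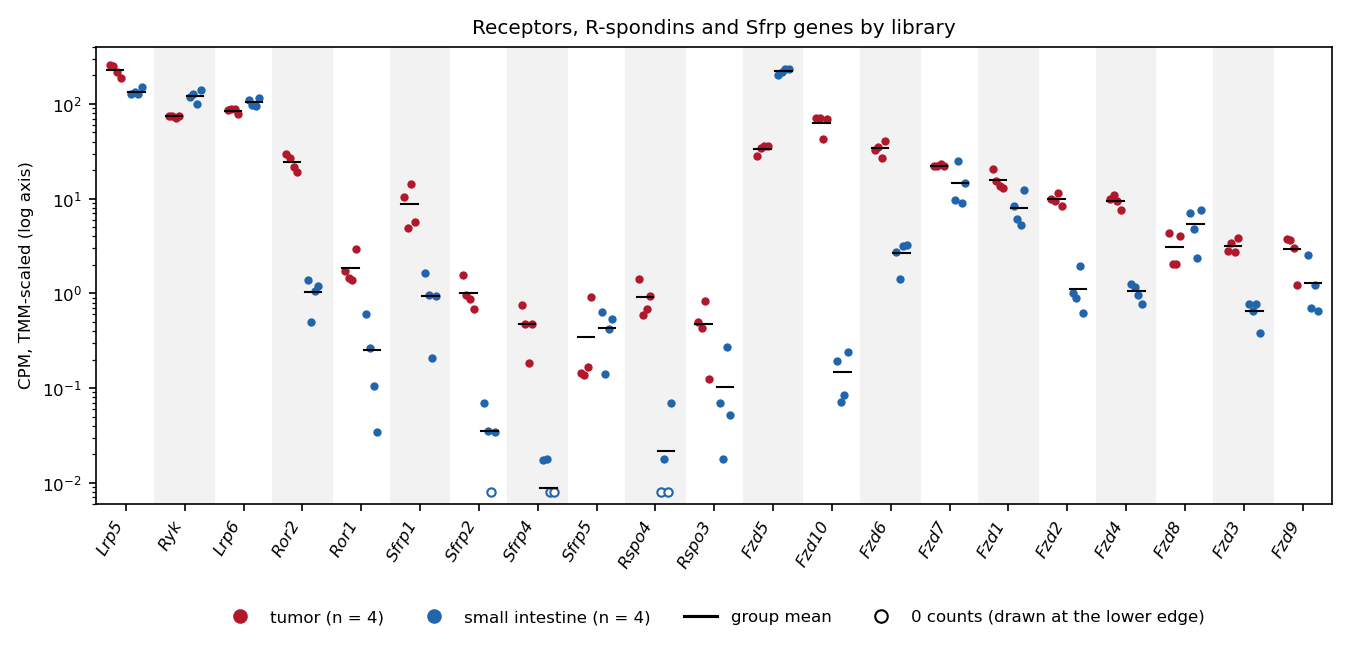
CPM in each library, on a log axis, of the other receptors, Sfrp genes, R-spondins and Frizzled receptors over the low-count filter; tumor libraries are left of small intestine libraries, lines are group means and open points are libraries with 0 counts. Fzd5 is far lower in tumor while Fzd10, Fzd6 and Ror2 are far higher, and Fzd7, Fzd8, Fzd9, Sfrp5 and Rspo3 overlap.

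R-spondins were low throughout. Rspo4, known in nail development, had 130, 48, 49 and 84 counts in tumor and 0, 1, 0 and 4 in small intestine, and averaged 0.915 ± 0.377 CPM in tumor libraries, against 0.0217 ± 0.0326 CPM in small intestine libraries (SD, n = 4 each). The log2 fold change was 5.24 ± 0.74 (edgeR adjusted p = 0.000151), and 6.85 without small intestine replicate 4, which held most of the small intestine counts. Its antisense partner Rspo4os had 2 counts in tumor and 1 in small intestine. Rspo3, a stromal R-spondin of the mouse crypt, was at 0.496, 0.433, 0.838 and 0.124 CPM in tumor and at 0.0694, 0.0177, 0.273 and 0.0517 CPM in small intestine. Replicate 3 was the highest library in each tissue, and its small intestine value exceeded the lowest tumor value. The log2 fold change of 2.23 ± 0.78 (adjusted p = 0.0260) was not called without tumor replicate 3 (edgeR adjusted p = 0.0730) or without small intestine replicate 1 (0.0692), 2 (0.0586) or 4 (0.0673; 0.00526 to 0.0730 over all alternatives), and was 3.29 without small intestine replicate 3. An antisense gene not counted separately, Gm48159, shares 13.1% of the Rspo3 exon bases. Rspo1, with 14, 9, 0 and 5 counts in tumor and 3, 1, 1 and 3 in small intestine, was under the filter. Rspo2 was too, with none in tumor and 4 counts in small intestine replicate 3 alone.

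Of the Sfrp genes, Sfrp1, Sfrp2 and Sfrp4 rose. Sfrp1, a Wnt-binding protein of stroma and muscle, was at 10.4, 4.95, 14.4 and 5.66 CPM in tumor and at 1.63, 0.972, 0.210 and 0.931 CPM in small intestine. Tumor values spread more than 2-fold without meeting the small intestine values, and the log2 fold change was 3.23 ± 0.58 (edgeR adjusted p = 0.000682). Sfrp2, a fibroblast product, was at 1.57, 0.953, 0.866 and 0.688 CPM in tumor, against 0.0694, 0.0354, 0 and 0.0345 CPM in small intestine, with a log2 fold change of 4.76 ± 0.58 (adjusted p = 5.5e-05). The antisense gene Gm26771 shares 16.1% of the Sfrp2 exon bases and had 68 counts in tumor and 2 in small intestine, so part of the Sfrp2 counts cannot be told apart from it. Sfrp4, another secreted Wnt-binding protein, had 161 counts in tumor and 2 in small intestine. The scaled ratio was 53.3 (95% exact binomial interval 14.5 to 444, counting error only; edgeR adjusted p = 0.000136). Sfrp5, secreted by gut endoderm in the embryo, was at 0.143, 0.136, 0.168 and 0.925 CPM in tumor and at 0.642, 0.141, 0.420 and 0.535 CPM in small intestine. Only tumor replicate 4 was high in tumor. The 95% interval of the log2 fold change ran from -1.96 to 1.29 (edgeR adjusted p = 0.688), and without tumor replicate 4 the estimate was -1.495 and called (edgeR adjusted p = 0.0321; 0.0321 to 0.954 over all alternatives).

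Markers of other cell types also differed between the tissues. Fibroblast markers rose in 6 of 6 cases and summed to 1150 to 1860 CPM in tumor and 17.1 to 61.0 CPM in small intestine. Markers of telocytes, a Wnt-secreting cell type under the epithelium, rose in 4 of 4 cases (155 to 171 against 9.40 to 16.0 CPM). Pdgfra, at 80.6 CPM in tumor, is in both the fibroblast and the telocyte list. With Bmp7 at 72.2 CPM it made up most of the telocyte sum in tumor, so that sum does not separate the cell types. Markers of crypt base stroma rose in 4 of 4 cases (206 to 242 against 73.9 to 121 CPM). Endothelial markers rose in 5 of 6 cases (461 to 583 against 16.4 to 31.2 CPM), where Prox1 at 359 CPM made up most of the tumor sum. Smooth muscle markers rose in 3 of 5 cases (122 to 144 against 22.0 to 76.5 CPM) and macrophage markers in 5 of 5 (111 to 177 against 49.4 to 94.6 CPM). Only 2 of 5 glial and neuronal markers passed the low-count filter, and both rose (list sum 4.80 to 7.72 against 0.690 to 1.63 CPM). The glial Sox10, under the filter, had 7 counts in tumor and 0 in small intestine. Only 1 of 4 mesothelial markers passed the filter, and it rose (list sum 4.50 to 7.04 against 0.849 to 5.45 CPM). Wt1, under the filter, had 0 counts in tumor and 1 in small intestine. T and B cell markers fell in 5 of 5 cases (11.0 to 26.7 against 66.3 to 266 CPM). Of 4 stomach markers 3 passed the filter and rose (list sum 11.0 to 15.9 against at most 0.0177 CPM), with Gkn1 and Gkn2 without counts in small intestine. Gkn2, under the filter, had 78 counts in tumor. The part of cell composition in the values of Wnt5a, Wnt2, Wnt2b, Rspo3 and the Sfrp genes was not tested.

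Other genes of the pathway were read from a list of 41, of which 36 were tested, 27 rose, 7 fell and 2 did not pass. The median log2 fold change was 3.06. These counts and those by role below stand against 38.9% called higher and 35.4% lower among all genes tested, where the median was 0.07. Among secreted and membrane-bound antagonists 9 of 11 tested rose and 2 fell. Dkk2, which blocks Lrp co-receptors, had 24407 counts in tumor and 2 in small intestine, a ratio of 8086 (95% exact binomial interval 2238 to 66769), and the Wnt-binding Wif1 showed a log2 fold change of 10.45. Kremen2, a partner of Dkk proteins, and Draxin, better known from axon guidance, fell by 1.81 and 2.68. Draxin was not called with library totals (-1.84, edgeR adjusted p = 0.0642; 0.000825 to 0.219 over all alternatives). All 5 R-spondin receptors and Frizzled-degrading ligases rose, among them Lgr6, a receptor for R-spondins, at 5.67 and the ligase Znrf3 at 4.02.

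In the branch without beta-catenin 8 of 12 genes rose, led by the polarity protein Vangl2 at 6.13 (6.88 without small intestine replicate 1) and the Wnt co-receptor Ptk7 at 5.10. Of the 3 that fell, the cadherin Celsr3 and the formin Daam1 stood at -0.89 and -0.84, but at -0.03 and 0.03 with library totals, where neither was called (edgeR adjusted p = 0.902 and 0.887). Of the Dishevelled adaptors, Dvl1 fell by 0.95 and Dvl2 rose by 0.41, while Dvl3 did not pass. Dvl1 was not called with library totals (-0.09, edgeR adjusted p = 0.547; 4.32e-12 to 0.547 over all alternatives). Dvl2 lost its call without tumor replicate 1 or 4 or small intestine replicate 1, 2 or 3 (edgeR adjusted p of 0.0507 to 0.0797; 4.86e-05 to 0.0810 over all alternatives). Of 5 cell-surface carriers 4 rose, led by the glypicans Gpc3 at 8.80 (7.93 without tumor replicate 4) and Gpc1 at 5.16, and Gpc4 fell by 0.83, against 0.04 with library totals.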

How the data were processed

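The authors deposited whole-number read counts per gene for 8 libraries, with no normalization, and FPKM values scaled by the authors for depth and gene length. The tools named in the submitters' processing notes are STAR, HTSeq 0.6.0, Cufflinks 2.2.1 and FastQC, with genome build GRCm38. The step each tool served, the gene annotation, strand handling and treatment of shared reads are not stated in the sources used here, so reads from overlapping antisense genes cannot be told apart. Symbols were matched by Ensembl identifier, and gene types and positions come from GENCODE M21 on GRCm38.

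Counts were tested with edgeR 4.0.16 (glmQLFit, glmQLFTest; R 4.3.3) with TMM, filterByExpr and tissue as the only term, over all genes. The procedure was tested on simulated data, where DESeq2's Wald test, an alternative only, made more false calls than its level. Its adjusted p values stand at the low end of some ranges. The simulation changed a small part of the genes, balanced up and down. It therefore did not test the scaling under differences as broad as those between these tissues. Each standard error was derived from the F statistic and its fold change. Alternatives used DESeq2 1.42.0 and limma 3.58.1. Floors (3 counts per library) and intervals cover counting error only. No libraries of a group were duplicates: the lowest chi-square over its degrees of freedom was 38.9. The members, lists and tests were chosen with earlier results of these data known. Described in full are called members whose higher group averaged 1 CPM or more, and for pathway lists up to 2 called genes with the largest change in each direction per role. Wnt6, Wnt10a, Wnt3, Wnt2b, Wnt5a, Wnt4, Fzd7, Fzd5, Rspo3, Sfrp1, Porcn and Wls were described in any case, and the highest gene by FPKM of a role is named. Other values were singled out after they were seen.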

Additional observations from a re-analysis of the deposited data

Results flagged for a closer look

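Within each tissue, a library was marked where its gap to the next library exceeded Dixon's 95% critical value for 4 samples, which chance passes in about 1 of 20 groups. Of 70 groups tested, 6 were marked. Tumor replicate 4 was the highest tumor library for Wnt10a, at 9.75 CPM against 4.75 to 5.07, for Wnt2, at 2.50 CPM against 0.232 to 0.405, and for Sfrp5, at 0.925 CPM against 0.136 to 0.168. The same library was the lowest of its group in 17 of 36 genes and the highest in 12. Tumor replicate 3 was the lowest for Fzd10, at 42.9 CPM against 69.0 to 71.3, and for Ryk, at 71.6 CPM against 74.8 to 75.0. Small intestine replicate 1 was the highest for Wnt2b, at 1.2 CPM against 0.525 to 0.566.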

How the results depend on the processing

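Between scalings the balance moved. With library totals 10564 genes were called higher and 2996 lower in tumor, 1 member lower instead of 3, and 1 other pathway gene lower instead of 7. The FPKM table gave 2326 genes lower (2328 with a pseudocount of 0.1; with no filter 11174 higher and 3007 lower), 19 members called under either pseudocount, because fewer pass an FPKM of 1, and under each FPKM setting 1 member and 1 other pathway gene lower. Leaving out both tumor replicate 4 and small intestine replicate 1, chosen after seeing the data, left 29 members called and 4 other pathway genes lower.

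With 1 library left out, 12049 to 12917 genes were called (6410 to 6814 higher, 5629 to 6103 lower), 27 to 31 members (25 to 27 and 2 to 4) and 32 to 34 other pathway genes (26 to 28 and 6 to 7).

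Among the members tested and the pathway genes named, signs reversed with library totals for Fzd8 (0.071), Sfrp5 (0.54), Wnt9a (0.46), Lrp6 (0.57), Ryk (0.15), Daam1 (0.035) and Gpc4 (0.044). The pathway gene Prickle3, called lower and not named above, also did (-0.39 with TMM, 0.47). In FPKM at pseudocounts of 1 and 0.1 they did so for Fzd8 (0.069, 0.13), Lrp6 (0.58, 0.64), Ryk (0.23, 0.24), Daam1 (0.13, 0.14) and Gpc4 (0.12, 0.13), and with no filter also for Sfrp5 (0.053), Wnt4 (0.001), Wnt9a (0.087) and Celsr3 (0.051). With libraries left out, Wnt3 ranged from -0.15 (below 0 without tumor replicate 3 or small intestine replicate 2 or 3) to 0.553, and Wnt9a from -0.767 to 0.24 (above 0 without small intestine replicate 4). The cause was not tested.

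Tumor and small intestine libraries of the same replicate number were not alike (same-number correlations of deviations from -0.159 to 0.0136). With so few libraries and unlike tissues, these values cannot decide whether such libraries share an animal. With the number as a block 11893 genes were called; among members Fzd7, Fzd8 (lower) and Fzd9 gained a call and Lrp6 lost it. Counts divided by exon length in place of FPKM, chosen after seeing the data, kept the sign of 22 of 22 share differences and moved 13 beyond the spread between replicates, among them Wnt5a from 18.9 to 13.4, Wnt6 from 7.37 to 13.3, Wnt3 from -18.9 to -25.0 and Fzd10 from 36.7 to 41.7 percentage points.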
